A study of Mus musculus with 10 samples.

Results

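Transcript levels of 10 genes of the EGR, KLF, IER and CSRNP families were followed in mouse embryonic fibroblasts before and after a mild heat treatment. The genes were Egr1, Egr2, Egr3, Klf2, Klf4, Klf6, Ier2, Ier3, Ier5 and Csrnp1, taken as every probe set annotated to them. They were chosen by gene name with earlier results of these data known, so their counts beside all genes are descriptive. These genes were 10 of 18193 on the array and had 20 probe sets, and all 10 were among the 10915 genes tested. Affymetrix arrays of 2 fibroblast lines were used: MEF(-/-), the hsp70 knockout, called KO-labelled here, and MEF(+/+), in which hsp70 is described as rescued, called rescue-labelled here. Preshocked cells had been held at 43 °C for 30 minutes and kept for 3 hours more in the incubator, and unheated cells were harvested after 23 hours in culture. There were 3 preshocked and 3 unheated KO-labelled arrays and 2 of each from the rescue-labelled line, each from the pooled lysates of 144 wells. Arrays are named here by the number in their label. KO-labelled preshocked arrays were 5, 11 and 13, their unheated counterparts were 6, 12 and 14, the rescue-labelled preshocked arrays were 31 and 43, and the rescue-labelled unheated arrays were 32 and 44. Each line stands for its genotype as a single cell line, so line and genotype cannot be told apart. The labels do not tell whether replicate arrays came from cultures grown apart, so each p-value covers only the spread among the arrays given.

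Immediate early genes are transcribed within minutes of a growth factor, cytokine or stress signal from factors already present in the cell, and most of their transcripts are short-lived. EGR and KLF proteins are zinc finger transcription factors that bind GC-rich DNA, IER proteins are small regulators of signalling and survival, and Csrnp1 encodes a cysteine- and serine-rich nuclear protein. In fibroblasts many of these genes are activated through MAP kinases acting on serum response factor (SRF) and its ternary complex partners, while Klf2 is known for activation through MEF2 factors.

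Both inducible Hsp70 genes were looked at first, since the labels name hsp70 and not which of them was deleted. Hspa1b stood at normalized log2 intensities of 14.90, 15.03 and 14.50 in the preshocked KO-labelled arrays 5, 11 and 13, against 7.27, 8.84 and 7.90 in the unheated arrays 6, 12 and 14. The rescue-labelled arrays had 14.79 and 14.57 after preshock and 9.40 and 8.75 without it, so Hspa1b was high after preshock in both lines. Hspa1a was too dim to be tested, at group means of 3.20 preshocked and 2.75 unheated in KO-labelled and 3.34 and 4.39 in rescue-labelled arrays. Whether these probe sets lie in the deleted part is not known here, and every direction given between the lines rests on the labels. Arrays 5 and 6 had median deposited intensities of 100.2 and 106.8, against 50.5 to 73.5 in the other 8 arrays, so results that depend on this pair are given without it too. Fibroblast markers were high, with Vim at 15.11 to 15.18 and Col1a2 at 13.49 to 13.86 as group means on the log2 scale, and 13 of 14 such genes were tested. Their summed normalized intensities ran from 107900 to 116800 in unheated and 103500 to 110100 in preshocked KO-labelled arrays, and from 103600 to 115600 and 102000 to 115600 in rescue-labelled ones. Pecam1, a defining endothelial gene, was near the floor at group means of 2.56 to 3.05, but 5 of the 10 endothelial markers measured were bright enough to be tested. No marker of endothelial, epithelial, leukocyte or muscle cells was called after preshock in either line by limma. Of the 12 tested, 1 had an unadjusted p under 0.05 in each line. Of all 10915 genes, 1398 had such a p in the KO-labelled and 913 in the rescue-labelled line.

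In the KO-labelled line 4 of the 10 genes rose 3 hours after preshock and 1 fell, at an adjusted p under 0.05 over all genes tested. Egr1 rose 6.75-fold, Csrnp1 3.84-fold, Klf6 3.09-fold and Ier3 1.62-fold, and Klf2 fell to a level 2.41-fold lower. In the whole array 1.77% of genes passed this test, 0.944% as higher and 0.825% as lower. The median change of the 10 genes was 0.81 on the log2 scale, beside -0.04 over all genes tested. In the rescue-labelled line, with 2 arrays a group, limma called 0 of the 10 genes and 0.357% of all genes. There 7 of the 10 had an unadjusted p under 0.05, as had 913 of the 10915 genes tested. With robust moderation it called Ier3 and Klf2 there, beside 0.513% of all genes. The median change there was 0.43, beside -0.03 over all genes. Averaged over both lines with equal weight, which uses the same arrays again, 5 of the 10 rose (Egr1, Csrnp1, Klf6, Ier3 and Ier5) and Klf2 fell, against 1.84% of all genes higher and 2.57% lower (4.42% in all). All 5 KO-labelled calls ended when dim genes were kept in the fit (0.154% of all genes called) or when it held KO-labelled arrays alone (0.403%), and after median centring Egr1 was the 1 gene of the 10 called in that line (0.238% of all genes). Averaging all probe sets of a gene left 3 calls (0.898%). The mean change of Egr1 was called under every alternative run (adjusted p up to 0.0450), while median centring (1.11% of all genes called) ended the mean calls of Klf2, Ier3 and Ier5, keeping dim genes ended those of Klf6 and Ier5, and averaging probe sets ended that of Csrnp1 (adjusted p = 0.263).

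**Figure D1:**
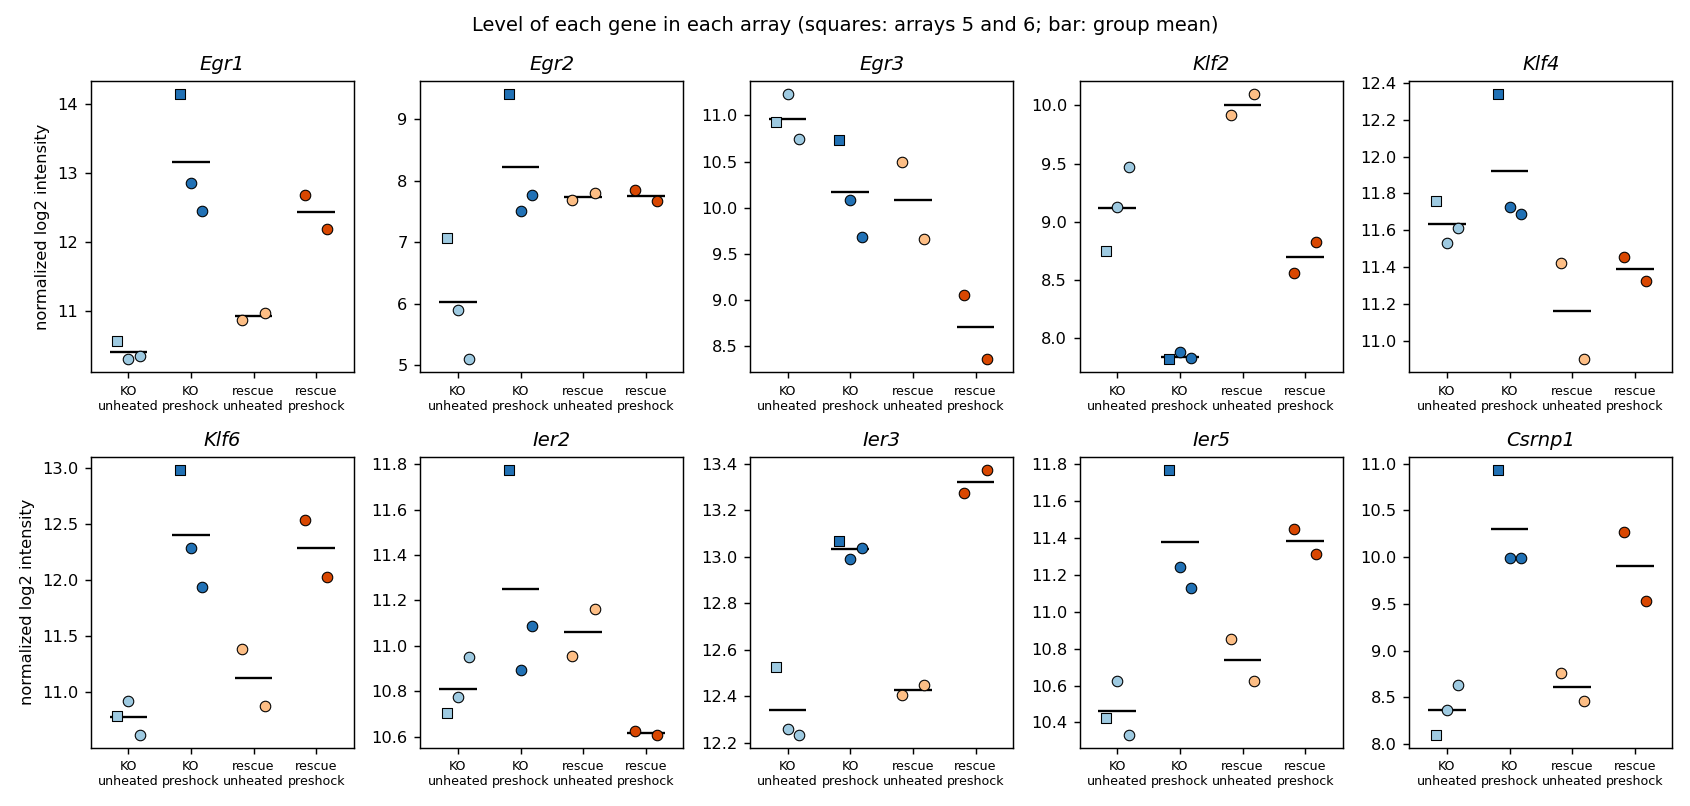
Normalized log2 intensity (vertical axes, a scale of its own for each gene) of the 10 genes in each of the 10 arrays, by line and treatment; bars are group means and squares are arrays 5 and 6. Egr1, Klf6, Ier3, Ier5 and Csrnp1 are higher in every preshocked array than in every unheated array of the same line, and Klf2 and Egr3 are lower.

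Among the KLF genes, Klf2 is known as a quiescence factor of endothelial cells and T cells. Its single probe set had deposited intensities of 269, 230.0 and 197 in the preshocked KO-labelled arrays 5, 11 and 13 and 486, 581 and 691 in the unheated arrays 6, 12 and 14. In the rescue-labelled line it had 338 and 457 after preshock (arrays 31 and 43) and 978 and 1143 without it (arrays 32 and 44). Every preshocked array was below every unheated array of its line, and the groups did not overlap. Fewer cells expressing a gene and less of its RNA per cell cannot be told apart in such samples. The log2 change was -1.27 ± 0.19 (SE) in KO-labelled arrays (limma adjusted p = 0.0176) and -1.31 ± 0.23 in rescue-labelled arrays (adjusted p = 0.0702, not called). The mean of both was -1.29 ± 0.15 (adjusted p = 0.00350), the smallest adjusted p among the 10 genes in that comparison. The mean change stayed called without each array in turn. The KO-labelled call ended without array 11 (adjusted p = 0.0734), 12 (0.0729) or 13 (0.0588), within a range of 0.00958 to 0.333 over all alternatives. The summed intensity of 10 endothelial markers went the other way, from 789.4 to 1099 in unheated and 1142 to 1184 in preshocked KO-labelled arrays and from 738.2 to 889.1 and 918.0 to 920.6 in rescue-labelled ones, and its part in the Klf2 values was not tested.

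Klf6, known as a growth-suppressing factor induced early after injury and serum, moved the other way. On the probe set used for the gene test it had 7213, 5098 and 4200.5 in preshocked KO-labelled arrays and 1728, 1948 and 1572 in unheated ones. The rescue-labelled values were 6435 and 4169 after preshock and 2705 and 1915 without it. The groups did not overlap in either line, and array 5 was the highest of all. Klf6 rose by 1.63 ± 0.28 log2 (SE) in KO-labelled arrays (limma adjusted p = 0.0300), and the change was 1.15 ± 0.35 in rescue-labelled arrays (adjusted p = 0.312). The mean change was 1.39 ± 0.22 (adjusted p = 0.0129) and was no longer called without array 31 (0.0626) or 44 (0.0572). The KO-labelled call held without array 5 or 13 and ended without any one of the other 8 arrays (adjusted p up to 0.111).

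Klf4, a factor of epithelial barrier formation and of reprogramming to pluripotency, showed no called change in either line. Its intensities were 4800.4, 3435 and 3421 in preshocked and 3211, 2929 and 3195 in unheated KO-labelled arrays. They were 2891 and 2604 in preshocked and 2786 and 1945 in unheated rescue-labelled arrays, where the groups overlapped. The log2 changes were 0.28 ± 0.21 (adjusted p = 0.762) and 0.23 ± 0.26 (adjusted p of 1), with a mean of 0.26 and a 95% interval from -0.13 to 0.64. Its second probe set gave 0.49 ± 0.31 and 0.48 ± 0.38, also not called.

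Sequences upstream of a few of these genes are shown because Klf2 fell while Klf6 and Ier3 were higher in every preshocked array, and because Egr2 holds the element through which SRF is known to act. They are the 250 bases before the start of transcription in RefSeq (GRCm38.p6), which had such windows for 7 of the 10 genes, 14 windows in all. Egr1, Egr3 and Ier2 had no window, so their upstream sequences were not searched. In Klf2 (chr8:72318812-72319061, plus strand) the capitals mark first a GCGNGGGCG match, the EGR recognition sequence, 199 bases before the start, and then a MEF2 site 118 bases before it.
Klf2: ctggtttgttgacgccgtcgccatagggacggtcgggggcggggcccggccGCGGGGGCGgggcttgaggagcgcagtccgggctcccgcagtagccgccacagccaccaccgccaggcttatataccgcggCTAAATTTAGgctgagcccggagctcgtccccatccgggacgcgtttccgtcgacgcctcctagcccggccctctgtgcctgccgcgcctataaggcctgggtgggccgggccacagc
In Klf6 (chr13:5861239-5861488, plus strand) the capitals mark 4 CCAAT boxes on either strand, the first 230 and the last 78 bases before the start, and in Ier3 (chr17:35821463-35821712, plus strand) they mark 2 CCAAT boxes.
Klf6: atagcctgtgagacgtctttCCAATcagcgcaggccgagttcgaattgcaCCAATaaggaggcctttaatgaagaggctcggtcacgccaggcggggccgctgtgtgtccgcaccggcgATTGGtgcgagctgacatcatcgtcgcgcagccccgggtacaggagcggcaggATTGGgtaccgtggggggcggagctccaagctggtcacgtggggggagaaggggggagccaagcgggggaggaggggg
Ier3: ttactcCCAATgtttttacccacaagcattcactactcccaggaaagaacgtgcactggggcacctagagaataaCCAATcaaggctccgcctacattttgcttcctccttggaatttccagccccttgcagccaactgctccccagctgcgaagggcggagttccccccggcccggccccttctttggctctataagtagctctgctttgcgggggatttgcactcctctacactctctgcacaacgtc
In Egr2 (chr10:67537619-67537868, plus strand) the capitals mark a CArG box 72 bases before the start.
Egr2: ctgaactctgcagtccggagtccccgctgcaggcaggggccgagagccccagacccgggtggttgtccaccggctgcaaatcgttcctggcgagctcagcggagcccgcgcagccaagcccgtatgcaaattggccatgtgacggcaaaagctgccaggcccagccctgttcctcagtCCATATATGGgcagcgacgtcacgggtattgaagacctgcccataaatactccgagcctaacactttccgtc

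Both strands of 32851 such windows of 250 bases in the RefSeq table were searched for the same letters. A CArG box was in 1.47% of them, a MEF2 site in 0.508%, GCGNGGGCG in 4.70%, CCAAT in 33.8%, the GC box GGGCGG in 32.7%, the short CRE site TGACG in 17.8% and the whole CRE TGACGTCA in 1.55%. The heat shock element pairs GAANNTTC and TTCNNGAA were in 6.69% and 7.17%. GGGCGG can overlap GCGNGGGCG, and TGACG is part of TGACGTCA. Among the 7 genes with a window, which leaves out Egr1, the CArG box was found in Egr2 and the MEF2 site in Klf2. GCGNGGGCG was found in Klf2 and, at 211 and 194 bases before the start, in Klf4. CCAAT was also found in Ier5, at 108 and 46 bases before the start, in 3 overlapping windows of Egr2 and in 1 of Csrnp1. GGGCGG was found in Klf2, which fell, and also in Klf4, Klf6, Ier3, Ier5, Egr2 and Csrnp1. TTCNNGAA was found in 1 window of Egr2. TGACG was found in every window of Csrnp1, in 3 overlapping windows of Egr2 and in those of Klf2 and Klf4. In these overlapping Egr2 windows the TGACG and CCAAT matches are the same bases. These are matches of letters in a window, and no binding was measured.

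Among the IER genes, Ier3 encodes a membrane-associated regulator of apoptosis and ERK signalling. It had intensities of 7534, 8389.7 and 9641 in preshocked and 5258, 4759 and 4989.9 in unheated KO-labelled arrays, and 11370.3 and 10830.1 against 5511 and 5403 in rescue-labelled arrays. The groups did not overlap in either line. Ier3 rose by 0.69 ± 0.13 log2 (SE) in KO-labelled arrays (limma adjusted p = 0.0354). The change in rescue-labelled arrays was 0.90 ± 0.15 (adjusted p = 0.0672), which passed with the array pairs as a block (adjusted p = 0.0372, and 0.0183 to 0.981 over its alternatives). The mean was 0.79 ± 0.10 (adjusted p = 0.00506) and stayed called without each array in turn. The KO-labelled call held without array 6 and ended without any one of the other 9 (adjusted p up to 0.139).

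Ier5, known as a target and partner of the heat shock factor HSF1, had intensities of 3307, 2446 and 2244 in preshocked and 1365, 1585 and 1283 in unheated KO-labelled arrays. In the rescue-labelled line they were 2884 and 2595 against 1882 and 1621. Every preshocked array was above every unheated array of its line. The log2 change was 0.92 ± 0.19 (SE) in KO-labelled arrays (adjusted p = 0.0588), which passed with the pair block (adjusted p = 0.0378, and 0.0268 to 0.392 over its alternatives), and 0.64 ± 0.23 in rescue-labelled arrays (adjusted p = 0.434). Ier5 rose on average over both lines, by 0.78 ± 0.15 (adjusted p = 0.0251). That call ended without array 6, 11, 14, 31, 32, 43 or 44 (adjusted p up to 0.101).

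Ier2, a nuclear protein of cell motility and proliferation, was the gene whose changes had opposite signs in the 2 lines. Its intensities were 3321, 1899.8 and 2175 in preshocked and 1644, 1755 and 1993 in unheated KO-labelled arrays, where the groups overlapped. In rescue-labelled arrays they were 1563 and 1602 after preshock and 2025 and 2314 without it, and did not overlap. The log2 changes were 0.44 ± 0.22 (adjusted p = 0.484) and -0.44 ± 0.27 (adjusted p = 0.815), neither of them called. Without array 5 the KO-labelled change was 0.18 ± 0.15.

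Csrnp1, named as a gene raised by AXIN1, had intensities of 1916, 992 and 949 in preshocked and 330.0, 348 and 378 in unheated KO-labelled arrays. In rescue-labelled arrays they were 1201 and 757 after preshock and 434 and 379 without it. The groups did not overlap in either line, and array 5 was the highest. Csrnp1 rose by 1.94 ± 0.31 log2 (SE) in KO-labelled arrays (limma adjusted p = 0.0216), and the change was 1.29 ± 0.37 in rescue-labelled arrays (adjusted p = 0.292). The mean, 1.61 ± 0.24 (adjusted p = 0.00947), stayed called without each array in turn. The KO-labelled call ended without array 6, 11, 12 or 14 (adjusted p up to 0.0830).

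Of the EGR genes, Egr1 is the founding member of the family and a standard readout of ERK signalling. It had intensities of 13701, 7714 and 6165 in the preshocked KO-labelled arrays 5, 11 and 13, against 1487, 1272 and 1292 in the unheated arrays 6, 12 and 14. The rescue-labelled arrays had 7186 and 4683 after preshock and 1898 and 2018 without it. The groups were far apart in both lines, with array 5 the highest and at percentile 99.4 of its array. Egr1 rose by 2.76 ± 0.38 log2 (SE) in KO-labelled arrays (limma adjusted p = 0.0130), and the change in rescue-labelled arrays was 1.52 ± 0.47 (adjusted p = 0.329). The mean change was 2.14 ± 0.30 (adjusted p = 0.00797), the largest of the 10 genes, and stayed called without each array in turn. The KO-labelled call ended without array 11 (adjusted p = 0.0531), 12 (0.0603) or 14 (0.0555), within a range of 0.00238 to 0.0792 over all alternatives.

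Egr2, a factor of myelinating Schwann cells and hindbrain patterning, was dim. On the probe set used for the gene test it had 704, 179.6 and 189 in preshocked and 190.2, 69.0 and 29.4 in unheated KO-labelled arrays. In rescue-labelled arrays it had 200 and 191 after preshock and 192 and 226 without it. The KO-labelled groups overlapped in deposited intensity, because the unheated array 6 was above arrays 11 and 13, and did not overlap once normalized. The log2 change was 2.20 ± 0.58 (SE) in KO-labelled arrays (adjusted p = 0.122) and passed with the pair block (adjusted p = 0.0176, the lowest of values up to 0.305). In rescue-labelled arrays it was 0.01 ± 0.71 (adjusted p of 1, and -0.078 after median centring). The second probe set gave 1.62 ± 0.35 and 0.49 ± 0.43 in the fit of all probe sets. The mean over both lines, 1.11 ± 0.46 (adjusted p = 0.255), also passed with the block (adjusted p = 0.0196, the lowest of values up to 0.496).

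Egr3, known from muscle spindles and lymphocytes, was lower after preshock in every array of both lines, unlike Egr1. Its intensities were 1676, 1059.6 and 753 in preshocked and 1887, 2385 and 1722 in unheated KO-labelled arrays. In rescue-labelled arrays they were 487 and 326 against 1464 and 861. Array 5 was close to the unheated arrays, and the groups did not overlap in either line. The log2 changes were -0.80 ± 0.33 (SE, adjusted p = 0.364) and -1.37 ± 0.41 (adjusted p = 0.312), neither of them called. The mean, -1.09 ± 0.26, missed the threshold (adjusted p = 0.0612). It was called with the pair block (adjusted p = 0.0189, the lowest of values up to 0.213).

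**Figure D2:**
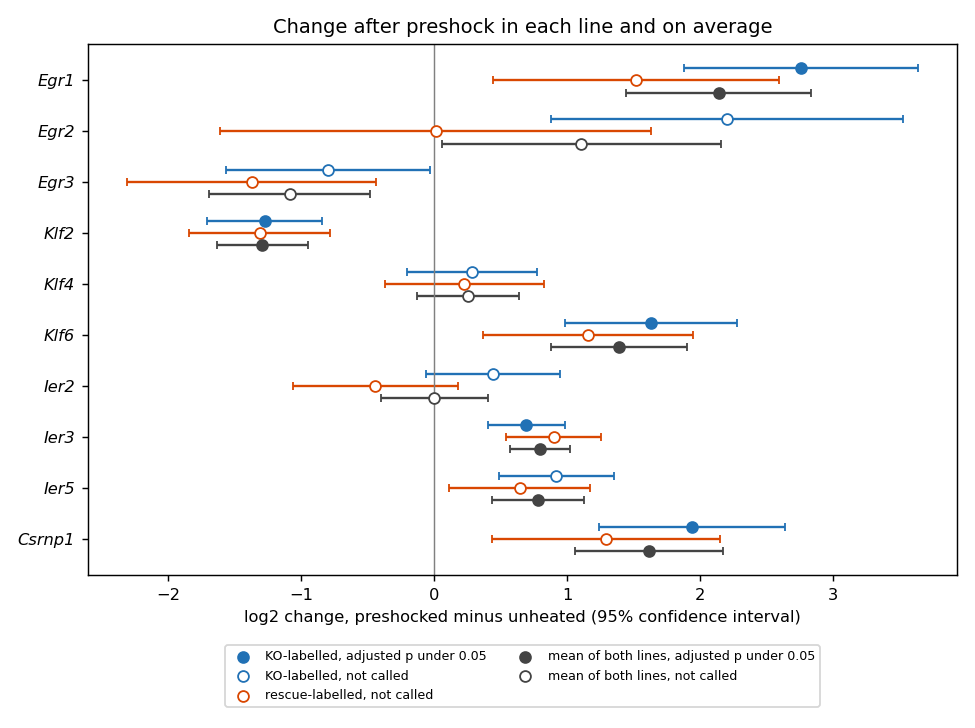
Log2 change after preshock (horizontal axis, with 95% confidence intervals from limma) for the 10 genes in the KO-labelled line, the rescue-labelled line and the mean of both; filled points passed an adjusted p under 0.05. The points of Egr1, Klf6, Ier3, Ier5 and Csrnp1 lie right of 0 and those of Klf2 and Egr3 left of 0 in both lines, with no filled point for the rescue-labelled line.

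Counted by arrays alone, 6 of the 10 genes were higher and 2 lower in every preshocked KO-labelled array than in every unheated one, where 16.4% of all genes did not overlap in either direction. In rescue-labelled arrays 5 were higher and 3 lower, against 38.7% of all genes. The label numbers place a preshocked beside an unheated array of the same line, and the change was also taken within these 5 pairs. Egr1, Klf4, Klf6, Ier3, Ier5 and Csrnp1 were higher in all 5 pairs, as were 12.6% of all genes, and Klf2 and Egr3 were lower in all 5, as were 22.0%. Egr1 changed by 3.59, 2.56 and 2.11 log2 in the KO-labelled pairs led by arrays 5, 11 and 13 and by 1.82 and 1.21 in the rescue-labelled pairs led by 31 and 43. Ier3 was steadier, at 0.54, 0.73 and 0.80 and at 0.87 and 0.92. Klf2 changed by -0.93, -1.25 and -1.64 and by -1.35 and -1.27. The pair of arrays 5 and 6 gave the largest change of the 5 pairs for Egr1, Klf4, Klf6, Ier2, Ier5 and Csrnp1, and the smallest for Ier3, Klf2 and Egr3. With the pairs as a block limma called 7 of the 10 genes in KO-labelled arrays, 1 in rescue-labelled arrays and 8 on average, beside 9.15%, 1.50% and 17.4% of all genes. Without the pair of arrays 5 and 6 it called Egr1, Egr2 and Klf2 in KO-labelled arrays and Egr1, Ier3 and Klf2 in rescue-labelled arrays, with 8 genes on average, beside 1.03%, 0.715% and 4.95% of all genes.

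**Figure D3:**
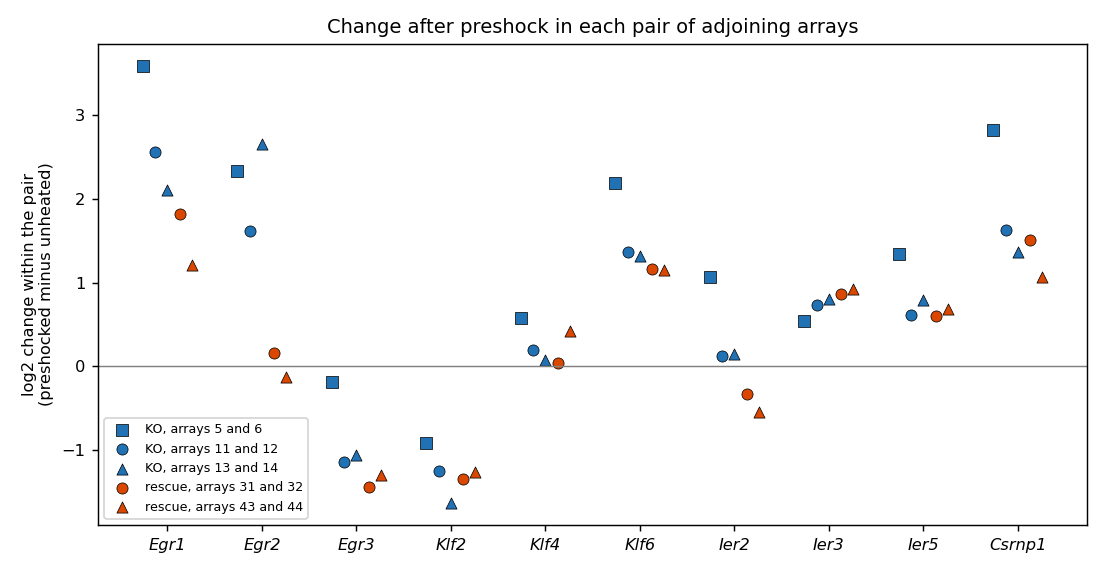
Log2 change within each of the 5 pairs of adjoining arrays (vertical axis) for the 10 genes; blue marks are KO-labelled and orange marks rescue-labelled pairs, and squares are the pair of arrays 5 and 6. The squares are the highest marks for Egr1, Klf6, Ier5 and Csrnp1, and the Ier2 marks lie above 0 in KO-labelled and below 0 in rescue-labelled pairs.

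Of the 10 genes, 6 had several probe sets, and for Klf6 they moved together. Its 5 probe sets changed by 1.45 to 1.81 log2 in KO-labelled arrays and by 1.12 to 1.49 in rescue-labelled arrays. The probe set 1447448_s_at had 4010.4, 2863 and 3012 in preshocked and 879, 1173 and 992 in unheated KO-labelled arrays, and 3832 and 3041 against 1187 and 1223 in rescue-labelled arrays. When all 45037 probe sets were tested together, with no filter on dim ones, limma called 0 of the 20 in KO-labelled arrays. Of all probe sets 0.0600% were called there, and the lowest adjusted p of the 20 was 0.0868 at 1447448_s_at. An unadjusted p under 0.05 was found for 12 of the 20, which measure 10 genes and so are not independent. Its share over all probe sets was not counted, so nothing is drawn from this count. On average over both lines 1447448_s_at alone was called (1.61 ± 0.19, adjusted p = 0.0348), beside 0.238% of all probe sets. The 3 probe sets of Ier5 changed by 0.41 to 1.58 in KO-labelled arrays. The probe sets of Csrnp1 disagreed: 1433000_at lay near the floor, at normalized log2 intensities of 1.46 to 6.25, and changed by -0.43 ± 1.06 in KO-labelled arrays. For Egr3, the dim probe set 1421486_at gave -0.05 ± 0.50 and -0.80 ± 0.61.

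**Figure D4:**
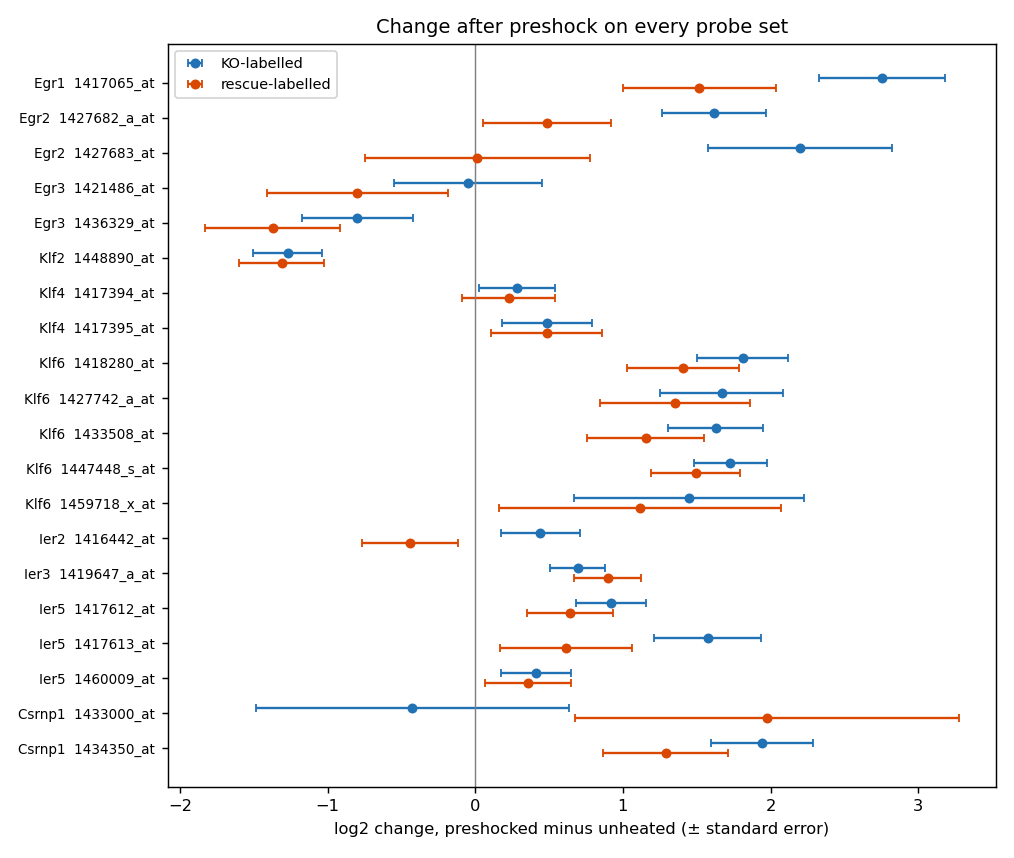
Log2 change after preshock with its standard error (horizontal axis) on each of the 20 probe sets, in KO-labelled (blue) and rescue-labelled (orange) arrays. The 5 Klf6 probe sets lie between 1.12 and 1.81, and the dim Csrnp1 probe set 1433000_at has the widest error, 1.06 in KO-labelled arrays.

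The lines were then compared. The difference of their preshock responses, rescue minus KO, was called for 0 of the 10 genes and for 0% of all genes by limma. An unadjusted p under 0.05 was found for 2 of the 10 and for 103 of the 10915 genes tested. For Egr1 it was -1.24 log2, with a 95% interval from -2.63 to 0.15, and for Egr2 it was -2.19 (-4.28 to -0.10, adjusted p of 1). The second Egr2 probe set gave -1.13 (-2.44 to 0.17) in the fit of all probe sets. For Ier2 the difference of responses was -0.88 (-1.68 to -0.08, adjusted p of 1). Klf2 and Ier3 had narrower intervals, from -0.72 to 0.64 and from -0.25 to 0.66. Csrnp1 lay between -1.76 and 0.45 and Klf6 between -1.49 and 0.55, so that differences of more than 2-fold between the lines lie within these intervals.

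Between the unheated lines, and between the preshocked lines, limma called 0 of the 10 genes, beside 0.421% and 0.339% of all genes. In each comparison 3 of the 10 had an unadjusted p under 0.05, as had 1409 and 1536 of the 10915 genes tested. Klf2 was higher in every rescue-labelled than in every KO-labelled array of the same treatment, by 0.89 ± 0.21 log2 (SE) unheated (adjusted p = 0.142) and 0.85 ± 0.21 preshocked (adjusted p = 0.159). Egr3 was lower on the probe set used for the gene test, by -0.89 ± 0.37 (adjusted p = 0.368) and -1.46 ± 0.37 (adjusted p = 0.167). Its dim second probe set did not show this, at 0.71 ± 0.56 unheated and -0.04 ± 0.56 preshocked. Egr2 differed by 1.72 ± 0.65 in unheated arrays (adjusted p = 0.324). It was called there without the pair of arrays 5 and 6 (adjusted p = 0.0288, the lowest of a range up to 0.805), beside 0.779% of all genes. The second Egr2 probe set gave 0.51 ± 0.40 between the unheated lines. Groups of the 2 lines did not overlap for 6 of the 10 genes unheated and 5 preshocked, beside 31.2% and 33.0% of all genes. Centring the arrays on their medians moved the median of all genes between the lines by 0.52 log2 unheated and 0.43 preshocked, and under it Klf4 unheated and Klf6 and Csrnp1 preshocked changed sign. Of 6 muscle markers measured, Acta1 was lower in rescue-labelled arrays (-1.41 ± 0.20 unheated, adjusted p = 0.0346, and -1.60 ± 0.20 preshocked, adjusted p = 0.0335). Both calls were lost with the pair block (adjusted p = 0.117 and 0.0833), and the unheated call also without the pair of arrays 5 and 6 (0.0506). The summed intensity of the 6 muscle markers ran from 255.1 to 416.9 in rescue-labelled and from 577.3 to 776.3 in KO-labelled arrays, and its part in these differences was not tested.

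**Figure D5:**
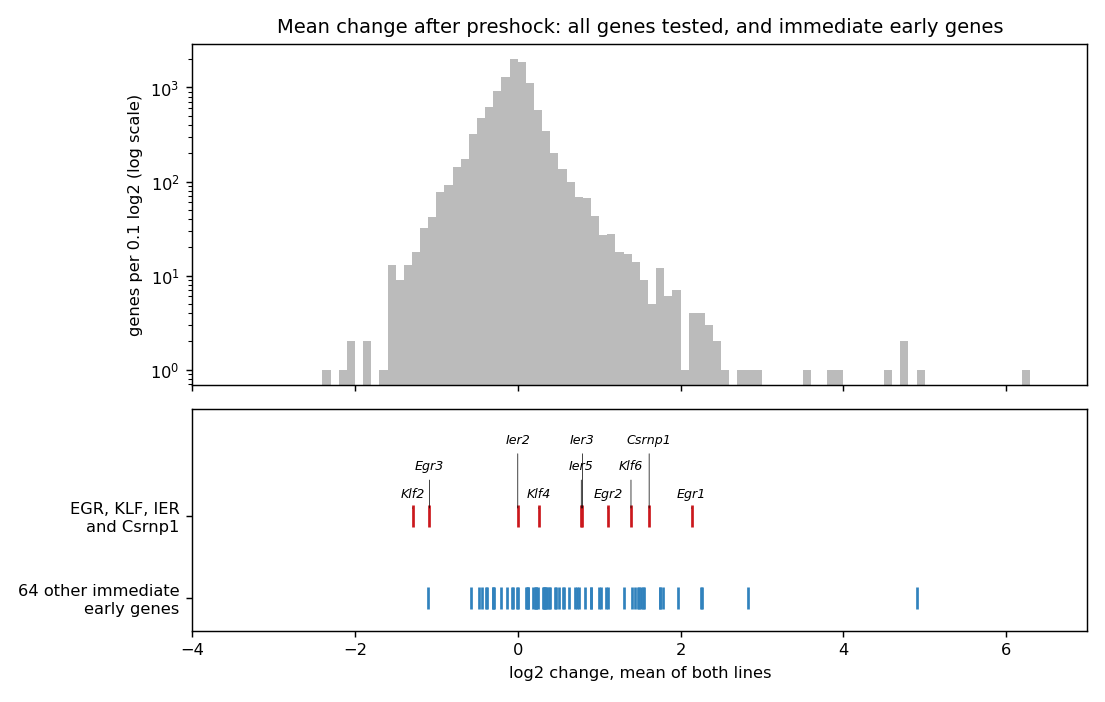
Number of genes per 0.1 log2 of mean change over both lines (upper panel, log scale) for the 10915 genes tested, above the positions of the 10 genes and of 64 other immediate early genes (lower panel). Klf2 and Egr3 lie left of 0 at -1.29 and -1.09, and Egr1 lies furthest right of the 10 at 2.14.

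Of 64 other immediate early genes tested, 19 rose and 0 fell in KO-labelled arrays, beside 0.944% of all genes as higher. Their median change there was 0.65 log2. In rescue-labelled arrays 6 rose and 0 fell, with a median of 0.34, beside 0.357% of all genes called in either direction. On average over both lines 24 rose, beside 1.84% of all genes as higher. Those with the smallest adjusted p, not the largest changes, are named. They were Atf3, a stress-induced transcription factor (4.91 ± 0.26), and the phosphatase gene Dusp4 (1.75 ± 0.12). Next came Socs3, an inhibitor of cytokine signalling (1.52 ± 0.13), and Rgs2, a regulator of G protein signalling (2.25 ± 0.20). Fosb, at 2.83, rose more than all of these but Atf3. In KO-labelled arrays the count was 29 higher and 2 lower with the pair block, beside 9.15% of all genes called. It was 12 higher without the pair of arrays 5 and 6 (1.03%) and 7 after median centring (0.238%). Of 13 other genes of the same families, Klf5 rose (1.10 ± 0.20) and Klf13 fell (-0.73 ± 0.13) in KO-labelled arrays. In that line 1.77% of all genes were called. On average Klf11 also rose (0.95 ± 0.16) and Klf12 also fell (-0.98 ± 0.18), beside 4.42% of all genes called. After median centring 0 of the 13 were called, beside 0.238% of all genes in KO-labelled arrays and 1.11% on average.

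Lists of genes chosen for their links to these factors were counted as well. The list made for EGR corepressors held 4 genes, Nab1, Nab2, Sertad1 and Ddx20. Of these Nab2, which binds EGR proteins and is itself an EGR1 target, rose on average by 0.86 ± 0.12 (limma adjusted p = 0.00748). On average 1.84% of all genes were called as higher. Among 8 known EGR1 targets the growth factor gene Vegfa and the kinase gene Sphk1 rose in KO-labelled arrays, by 1.44 ± 0.20 and 1.09 ± 0.19. Of 6 genes of SRF and its partners, the coactivator gene Mrtfb fell in KO-labelled arrays (-0.83 ± 0.14). Without the pair of arrays 5 and 6, Klf5, Klf13, Vegfa, Sphk1 and Mrtfb missed the threshold in the KO-labelled line (lowest adjusted p 0.0537, highest 0.0854). Limma called 0 of 11 upstream MAP kinases, 0 of 3 MEF2 factors and 0 of 2 heat shock factors in either line. Of these, 1 MEF2 factor had an unadjusted p under 0.05 in KO-labelled arrays, as had 1398 of the 10915 genes tested. This factor was called with the pair block, as were 9.15% of all genes. Of 11 inducible heat shock genes 9 rose in KO-labelled and 6 in rescue-labelled arrays, beside 1.77% and 0.357% of all genes called. Their median changes were 1.90 and 1.69, and Dnajb1 was among those that rose (2.64 ± 0.16 in KO-labelled arrays).

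Across the 10 arrays, which fall into preshocked and unheated groups, the closest pattern to Egr1 was that of Gadd45g, a DNA damage-inducible gene, with a Pearson correlation of 0.991 on the log2 scale and 0.928 after group means were removed. Klf6 and Ier5 were each other's closest match among all genes tested, at 0.989 (0.946 within groups), and Egr1 and Csrnp1 came next for Klf6, at 0.969 and 0.967. Csrnp1 was closest to Rsrp1 (0.977) with Fos at 0.973. Klf2 followed Rabif at 0.978, which was 0.546 within groups, and Egr3 followed Qrsl1 at 0.980. Egr1 and Egr3 correlated at -0.378 over the arrays but at 0.702 within groups. The within-group values include the pair of arrays 5 and 6, which stood apart for many genes.

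All 10 genes are short. In RefSeq (GRCm38.p6) they span from 1.2 kb for Ier3 (chr17:35821713-35822911) to 13.58 kb for Csrnp1 (chr9:119971163-119984742), with a median of 4.53 kb against 23.63 kb for the genes tested, of which 33.0% are no longer than Csrnp1. Egr1 spans 3.75 kb (chr18:34861207-34864956) and Klf2 2.59 kb (chr8:72319062-72321654). The genes that rose and the gene that fell were alike in being short, as were the 64 other immediate early genes, with a median of 6.02 kb.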

How the data were processed

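Linear intensities per probe set, deposited by the authors, were used from 10 Affymetrix arrays. Trimmed array means near 500 fit scaling to a common target by the authors, and the sources used here do not name the summarisation software. The table holds 45101 probe sets. Of these 64 were controls, 34945 had 1 gene symbol, 932 had several and 9160 had none. Values below 1 were set to 1 (4935 values), and log2 values were quantile normalized because array medians differed by up to 1.08. The probe set with the highest mean stood for each gene, and the upper 60% of genes by mean, 10915, were tested.

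All comparisons came from a single limma fit (limma 3.58.1 and statmod 1.5.0 under R 4.3.3) of the means of the 4 groups. P-values were adjusted by Benjamini-Hochberg over all genes tested and called under 0.05, and errors are standard errors. A second fit took all 45037 probe sets that are not controls. The number of arrays limits the precision.

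All 10 genes are named. From each other list the counts are given, and up to 4 called genes with the smallest adjusted p are named. For likeness, up to 3 genes with the highest correlation are named. The genes and lists were chosen with earlier results of these data known.

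Arrays with adjoining numbers (5 and 6, 11 and 12, 13 and 14, 31 and 32, 43 and 44) were checked as pairs. Their deviations from group means correlated at 0.721, 0.376, 0.552, 0.370 and 0.370. The last pairs mirror each other, because their groups hold 2 arrays. Alternatives were the pair block, median centring, no filter, a floor of 16, the mean of all probe sets, robust moderation, fewer groups and each array or the pair of arrays 5 and 6 left out.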

Additional observations from a re-analysis of the deposited data

Results flagged for a closer look

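The estimated preshock response of Ier2 had opposite signs in the lines, and its difference, rescue minus KO, was -0.88 log2. Without array 5 the KO-labelled estimate was 0.18 ± 0.15 (SE). Ier2 was higher in the preshocked array of each of the 3 KO-labelled pairs, by 1.07, 0.12 and 0.14 (pairs led by arrays 5, 11 and 13), and lower in that of both rescue-labelled pairs, by -0.33 and -0.55. The difference was not called by limma (adjusted p of 1), as was the case for all genes tested.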

How the results depend on the processing

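Of the 10 genes, 5 were called in KO-labelled arrays. The count was 1 with the arrays centred on their medians (Egr1), 0 with no filter on dim genes or with only the groups compared in the fit, 3 with the mean of all probe sets and 3 without the pair of arrays 5 and 6. The share of all genes called fell too, from 1.77% to 0.238%, 0.154%, 0.403%, 0.898% and 1.03% in that order. The count ran from 0 to 4 without single arrays. In rescue-labelled arrays the count of 0 became 1 with the replicate block of paired arrays (Ier3, beside 1.50% of all genes). It became 2 with robust moderation (Ier3 and Klf2, beside 0.513%), 3 without the pair of arrays 5 and 6 (0.715%), and 0 to 1 without single arrays. The mean response had 6 calls and 3 with centred arrays (1.11% of all genes). Between the unheated lines the count of 0 became 1 (Egr2) without the pair of arrays 5 and 6 (0.779% of all genes). Beside the calls given above, the replicate block changed no other call of the 10 genes. The cause of these shifts was not tested. The unfiltered fit tests 18193 genes, and the fit of the groups compared has fewer arrays.

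Changes of sign were all in differences that were not called. With centred arrays the Egr2 rescue-labelled response was -0.078, Klf4 between unheated lines 0.12, and Klf6 and Csrnp1 between preshocked lines 0.42 and 0.12. With the mean of all probe sets Csrnp1 was 0.88 for the difference of responses and -1.11 between unheated lines. Without the pair of arrays 5 and 6 the mean response of Ier2 was -0.16, the difference of responses 0.13 for Klf2 and 0.0894 for Klf4, and the difference between preshocked lines 0.12 for Egr2 and 0.17 for Klf6. Without single arrays the difference of responses ran from -0.22 to 0.14 for Klf2 and -0.32 to 0.20 for Klf4, and the mean response of Ier2 from -0.13 to 0.090. Between preshocked lines the range was -0.83 to 0.12 for Egr2, -0.38 to 0.17 for Klf6 and -0.12 to 0.20 for Ier5. In the rescue-labelled response it was -0.078 to 0.10 for Egr2 and -0.033 to 0.48 for Klf4. Dim probe sets of Egr2, Egr3 and Csrnp1 limit what can be said of these genes, since no background was given per probe set.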
